A study of Mus musculus with 9 samples.

Results

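Cone photoreceptors carry daylight and color vision through a cascade that parallels the rod cascade but uses mostly different gene products. Light isomerizes the chromophore of a cone opsin, the opsin activates the G protein transducin, transducin releases the inhibition of phosphodiesterase 6 (PDE6), and the fall in cyclic GMP closes a cyclic-nucleotide-gated channel; arrestin then ends the opsin's activity. In mouse retina, rods greatly outnumber cones, and most cones make both a short-wavelength and a medium-wavelength opsin. The 10 genes described here encode this cascade: the opsins Opn1sw and Opn1mw, the transducin subunits Gnat2 (alpha), Gnb3 (beta), and Gngt2 (gamma), the PDE6 subunits Pde6c (catalytic) and Pde6h (inhibitory), the channel subunits Cnga3 and Cngb3, and cone arrestin, Arr3. They were picked by gene name from the 54532 genes of the count table, by a rule that uses no measured value, though the set was chosen with earlier results of these data known.

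Bulk RNA-Seq measured whole retina from 9 wild-type C57BL/6 mice at P17. For oxygen-induced retinopathy (OIR), mouse pups are kept in hyperoxia and then returned to room air, which leaves the central retina ischemic and promotes retinal neovascularization. Control mice 1, 6, and 7 were raised in room air and carry a DMSO label, OIR mice 3, 5, and 6 received DMSO vehicle at P12, and treated OIR mice 2, 5, and 10 received 32-134D, an inhibitor of the hypoxia-inducible factors, at P12. The labels give its dose both as 70 ng and as that amount per microliter. Each number names 1 animal, a number shared by groups does not link their mice, and no label says whether 1 or more retinas went into a library.

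Total counts per mouse ranged from 16028731 to 27213184, and the 10 cone genes together held 0.164% to 0.229% of them. Crystallin genes of the lens held 15.8% of the counts in treated OIR mouse 2 and at most 0.186% in any other mouse, so values are also given without that mouse where it decides them. From genes of the sex chromosomes, the females were control mouse 1, OIR mouse 3, and mice 2 and 5 of the treated OIR group. All 10 cone genes passed the filter on low counts that left 17540 genes, and their counts ran from 227 (Cngb3, treated OIR mouse 2) to 24299 (Gnb3, OIR mouse 6). Every one of these cone markers was therefore detected in every mouse. In bulk tissue, fewer cones and less RNA per cone cannot be told apart.

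The promoters of Gnat2 and Opn1mw are shown because this pair varied together most closely among the 9 mice, as described further on. RefSeq promoter windows on GRCm38.p6, which run from 250 bases before to 50 bases after the start of transcription, existed here for 6 of the 10 genes (Opn1sw, Opn1mw, Gnat2, Pde6h, Cnga3, and Arr3), in 7 windows. They were searched on both strands for TAATCC, the core letters bound by the photoreceptor homeodomain factors CRX and OTX2, whose reverse complement is GGATTA; the 2 spellings do not overlap in the matches below. The 250 bases before each start are given 5′ to 3′ on the + strand, at chr3:108092816-108093065 for Gnat2 and chrX:74127216-74127465 for Opn1mw, with the matched letters in capitals. The count table places the start of Gnat2 further upstream than RefSeq does, so all 250 printed bases of Gnat2 lie inside its counted gene body, as do the last 2 of Opn1mw.
Gnat2: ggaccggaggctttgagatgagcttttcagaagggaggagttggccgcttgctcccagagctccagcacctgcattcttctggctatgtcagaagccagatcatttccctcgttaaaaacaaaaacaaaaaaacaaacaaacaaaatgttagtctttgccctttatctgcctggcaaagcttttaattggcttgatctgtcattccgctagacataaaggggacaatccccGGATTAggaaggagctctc
Opn1mw: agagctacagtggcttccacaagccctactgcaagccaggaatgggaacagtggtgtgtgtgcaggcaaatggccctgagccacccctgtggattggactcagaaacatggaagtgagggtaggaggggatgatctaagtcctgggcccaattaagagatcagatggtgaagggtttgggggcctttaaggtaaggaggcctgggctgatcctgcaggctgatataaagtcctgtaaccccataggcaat
Gnat2 held 1 match, which began 19 bases before the start. The other 6 windows, Opn1mw's among them, held none. Of 32851 promoter windows of the same length, 2320 (7.06%) held the letters. Their presence is a description of this window and does not by itself show binding, which was not tested.

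The genes lie on 7 chromosomes. On GRCm38, Opn1sw lies at chr6:29376671-29388468, Gnb3 at chr6:124834240-124840275, and Pde6h at chr6:136923832-136968865. Opn1mw (chrX:74127464-74150760) and Arr3 (chrX:100605497-100618493) are X-linked. Gnat2 lies at chr3:108092789-108101432, Gngt2 at chr11:95837216-95845734, Pde6c at chr19:38132781-38183958, Cnga3 at chr1:37214434-37263384, and Cngb3 at chr4:19280850-19510623. Gene bodies on the other strand overlap Opn1sw (Calu), Opn1mw (Gm6758), Gngt2 (Abi3), and Pde6h (Arhgdib), and Gm11877 overlaps Cngb3 on its own strand. Whether counting used strand is not given in the sources used here, so reads of these neighbors cannot be told apart from reads of the cone genes.

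Levels between genes were compared per length (RPKM). Counts were scaled by library total adjusted with TMM, a scaling between libraries, and by the gene length in the table. In control retina, Opn1sw (196 ± 18.9 RPKM, SD, n = 3), Gnb3 (191 ± 28.9), and Opn1mw (166 ± 33.3) were the highest, and their ranges over the mice overlapped from each to the next. Gnat2 followed at 59.8 ± 8.65 RPKM and stood apart from its neighbors on both sides. Gngt2 (44.8 ± 2.44), Arr3 (38.8 ± 7.25), and Pde6c (31.5 ± 2.75) formed a run in which each range overlapped the next. Pde6h (21.0 ± 3.04 RPKM, over a listed gene length of 7846 bases, the longest of the 10) stood alone below them. The channel subunits Cnga3 (5.14 ± 0.85) and Cngb3 (3.93 ± 0.64) were lowest and overlapped each other. Gnat1, the rod transducin alpha subunit and counterpart of Gnat2, was far higher in control retina, at 3934 ± 980.3 RPKM (SD, n = 3). In OIR retina, Gnb3 (332 ± 78.5 RPKM) headed the order and no longer overlapped Opn1sw (154 ± 43.3). In treated OIR retina, Gnb3 again had the highest mean, 275 ± 189 RPKM, but its range of 146 to 491 overlapped that of Opn1sw (145 ± 8.45).

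**Figure D1:**
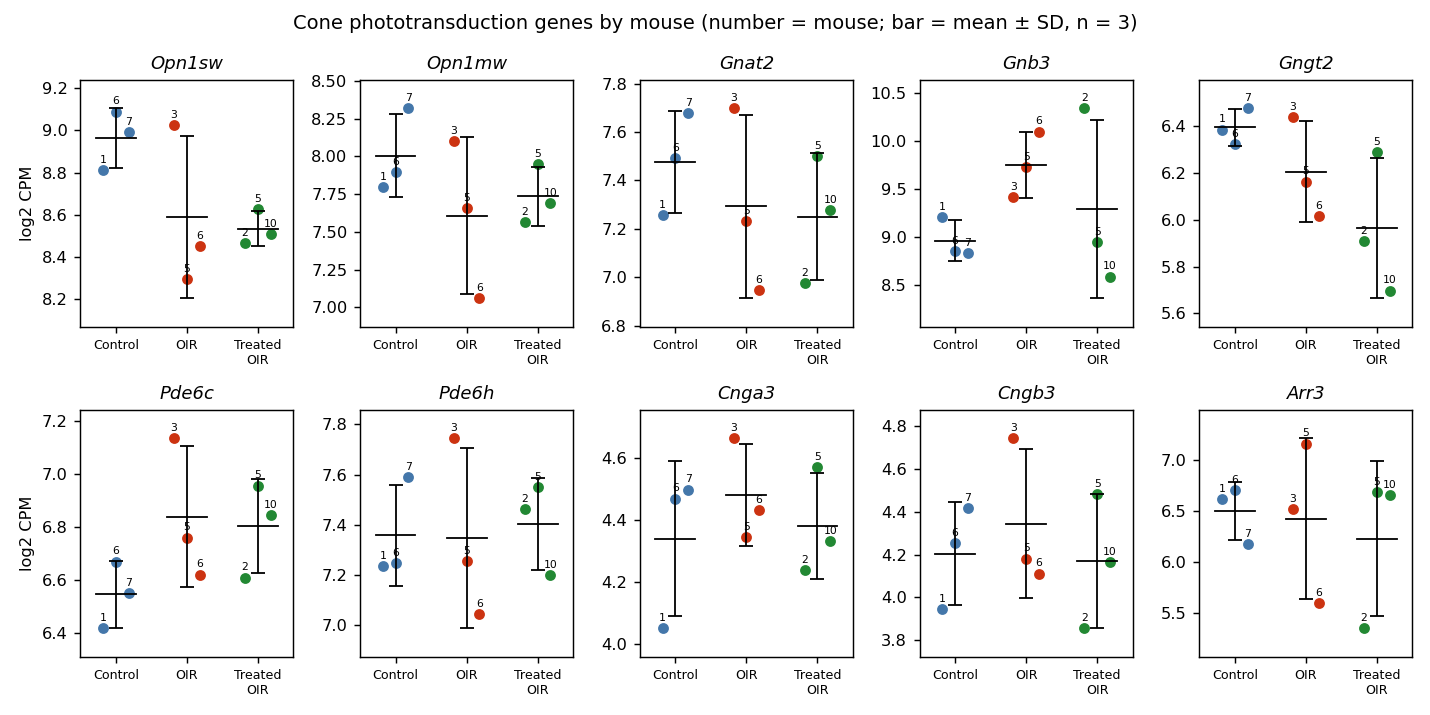
Level of each of the 10 cone phototransduction genes in each mouse, in log2 CPM (scaled counts) on a separate vertical axis per gene that does not start at 0; points are mice with their numbers, and bars show the mean ± SD of 3 mice. Gnb3 lies higher in the 3 OIR mice than in the 3 control mice, and Opn1sw and Gngt2 lie lower in the 3 treated OIR mice than in the 3 control mice.

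The first comparison, OIR with control, asks how the cone transcripts stood after ischemia. None of the 10 genes passed an adjusted p of 0.05 in edgeR's fit of all 9 mice (Benjamini-Hochberg over all genes tested), and none had an unadjusted p below 0.05 in it. Over all 17540 genes, 0.941% were called by adjusted p and 23.8% had an unadjusted p below 0.05. The fold changes of the 10 genes ran from -0.36 to 0.80 on the log2 scale with 6 above and 4 below 0, and their median was 0.027, beside 0.034 over all genes. Gnb3 was the only one of the 10 whose OIR mice all lay above the control mice, where 15.9% of all genes were apart in that direction and 17.2% in the other.

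Gnb3, the cone transducin beta subunit, which cone and ON bipolar cells both use, had the largest difference. Its log2 CPM was 9.20, 8.85, and 8.83 in the control mice 1, 6, and 7, and 9.42, 9.73, and 10.09 in the OIR mice 3, 5, and 6. In treated OIR mice 2, 5, and 10 it was 10.34, 8.94, and 8.59. Mouse 2 was thus the highest of the 9, while the other 2 treated OIR mice lay within or below the control range. The log2 fold change in OIR was 0.80 ± 0.41 (SE), with a 95% interval of -0.12 to 1.72 and an adjusted p of 0.27 in edgeR's fit of all 9 mice.

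The call on Gnb3 turned on how treated OIR mouse 2 entered the estimate of spread. With OIR and control mice fitted alone, DESeq2 gave 0.79 ± 0.18 (SE) with an adjusted p of 0.000239, where it called 15.4% of 16599 genes, and edgeR gave 0.78 ± 0.19 with an adjusted p of 0.0431, where it called 10.3%. With the other 8 mice fitted together, edgeR gave 0.78 ± 0.19 with an adjusted p of 0.0289 and called 12.5% of all genes. The size of the difference was 0.78 to 0.80 in these 4 fits, which all hold the same OIR and control mice. Its standard error was 0.41 in the first and 0.18 to 0.19 in the other 3. When 1 mouse was left out, the estimate ran from 0.61 (without OIR mouse 6, edgeR adjusted p = 0.54) to 0.95 (without OIR mouse 3, edgeR adjusted p = 0.28). Within the sexes, Gnb3 was higher by 1.07 on the log2 scale in the OIR males (2 against 2) and by 0.21 in the female (1 against 1).

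ON bipolar markers, given because these cells also make Gnb3, moved less and in both directions. Of 8 such markers, 6 had a fold change above 0 in OIR, with a median of 0.21 and none called. The OIR mice lay wholly above the control mice in 2 of the 6, as in 15.9% of all genes. They lay wholly below them in Gng13 (-0.56 ± 0.16) and Pcp2 (-0.49 ± 0.19), as in 17.2%. DESeq2 on the 2 groups called Gng13 and Pcp2 (adjusted p = 0.00067 and 0.024) and 1 of the 6, beside 15.4% of all genes. The summed level of the 8 was 922 to 1012 CPM in the controls, 1009 to 1227 CPM in OIR, and 897 to 928 CPM in the treated OIR mice. In treated OIR mouse 2, where Gnb3 was highest, that sum was 898 CPM, near the lowest of the 9 mice. None of these markers was at 0 in any mouse. OIR mouse 6 and treated OIR mouse 2, the mice with the highest Gnb3, also had the lowest summed retinal ganglion cell markers, at 91.1 and 38.6 CPM against 299 to 1515 in the other mice. The part of these markers, of lens RNA, or of mouse-to-mouse differences in the Gnb3 result was not tested.

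The opsins lay lower on average in OIR, with overlapping groups. Opn1sw, the short-wavelength opsin, stood at 8.81, 9.09, and 8.99 log2 CPM in the control mice 1, 6, and 7 and at 9.03, 8.29, and 8.45 in the OIR mice 3, 5, and 6. Its log2 fold change was -0.34 ± 0.19 (SE; 95% interval -0.76 to 0.08, edgeR adjusted p = 0.30). OIR mouse 3 lay among the control mice, whereas the other 2 OIR mice lay below them all. Opn1mw, the medium-wavelength opsin, stood at 7.80, 7.90, and 8.32 log2 CPM in the control mice and at 8.10, 7.66, and 7.06 in the OIR mice. Its fold change was -0.36 ± 0.25 (95% interval -0.92 to 0.21, edgeR adjusted p = 0.42), and OIR mouse 3 again lay within the control range. OIR mouse 3 is also the only female of its group. Within the sexes, Opn1sw was higher by 0.22 in the OIR female (1 against 1) and lower in the OIR males (2 against 2), by a log2 difference of -0.67, and for Opn1mw the differences were 0.30 and -0.75. Of the 10 cone genes, 7 had a difference above 0 in the female and below 0 in the males (both opsins, Gnat2, Gngt2, Pde6h, Cnga3, and Cngb3), Gnb3 and Pde6c were above 0 in both, and Arr3 was below 0 in both. With 1 female a group, sex and the single mouse cannot be told apart, and with sex as a covariate the opsins' estimates were -0.37 and -0.38.

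The balance of the opsins was read within each library, where scaling between libraries plays no part. Counts of Opn1mw were 43.7% to 62.7% of those of Opn1sw in the controls, 38.1% to 64.3% in OIR, and 53.6% to 62.6% in the treated OIR mice. The mean log2 ratio was -0.96 ± 0.26 (SD, n = 3) in the controls, -0.98 ± 0.38 in OIR, and -0.80 ± 0.11 in the treated OIR retina. The groups overlapped in all 3 comparisons, with two-sided exact permutation p = 1 for OIR with control, 0.5 for treated OIR with control, and 0.6 for treated OIR with OIR (adjusted p = 1, 0.9, and 0.9), where the smallest p that 3 mice against 3 allow is 0.1.

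Of the other transducin subunits, Gnat2, the alpha subunit that activates the phosphodiesterase, stood at 7.26, 7.49, and 7.68 log2 CPM in the control mice and at 7.70, 7.23, and 6.95 in the OIR mice 3, 5, and 6. Its log2 fold change was -0.16 ± 0.21 (95% interval -0.63 to 0.31, edgeR adjusted p = 0.68), and the OIR mice spread on both sides of the control mice. Gngt2, the gamma subunit, had a fold change of -0.18 ± 0.16 (95% interval -0.54 to 0.18). The 3 transducin subunits thus did not share a direction in OIR, since the estimate for Gnb3 was above 0 and the other two were below it.

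Pde6c, the cone PDE6 catalytic subunit, stood at 6.42, 6.67, and 6.55 log2 CPM in the control mice and at 7.14, 6.76, and 6.62 in the OIR mice, where OIR mouse 6 lay within the control range. Its log2 fold change was 0.31 ± 0.15 (95% interval -0.03 to 0.65, edgeR adjusted p = 0.25), the next largest above 0 after Gnb3. Pde6h, the inhibitory subunit, had a fold change of 0.01 ± 0.19 (95% interval -0.42 to 0.44). The channel subunits were each near 0, at 0.14 ± 0.17 for Cnga3, the cyclic-GMP-binding alpha subunit, and 0.16 ± 0.23 for Cngb3, the modulatory beta subunit.

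Arr3, the arrestin that quenches activated cone opsin, had the widest spread of the 10 genes in OIR retina and the widest after Gnb3 in the treated OIR retina. It stood at 6.62, 6.70, and 6.17 log2 CPM in the controls, 6.52, 7.16, and 5.60 in OIR, and 5.35, 6.68, and 6.65 in the treated OIR mice. OIR mouse 6 and treated OIR mouse 2 were the lowest, and these are the same mice in which Gnb3 was highest. Its log2 fold change in OIR was 0.04 ± 0.42 (95% interval -0.90 to 0.99), an interval that covers a near doubling and a near halving.

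**Figure D2:**
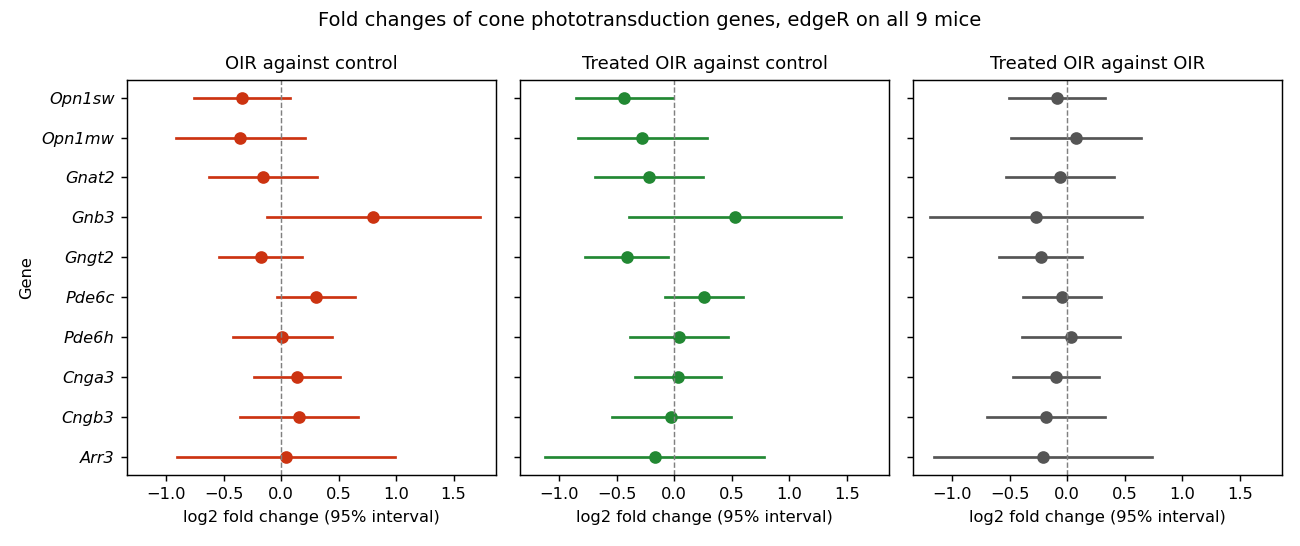
Log2 fold change (points) and 95% interval (lines) of the 10 cone genes in each of the 3 comparisons, from edgeR's fit of all 9 mice; the dashed line marks no difference. Only the intervals of Opn1sw and Gngt2 in treated OIR against control leave out 0 before adjustment over all genes.

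In the second comparison, treated OIR with control, no cone gene was called by adjusted p in edgeR's fit, where 0.0228% of all genes were. Of the 10 genes, 2 had an unadjusted p below 0.05, beside 18.6% of all genes. These were Opn1sw, at -0.43 ± 0.19 (SE; unadjusted p = 0.0442, adjusted p = 0.26), and Gngt2, at -0.41 ± 0.16 (unadjusted p = 0.0298, adjusted p = 0.23). In both, all treated OIR mice lay below all control mice, as in 12.2% of all genes, while 12.8% were apart in the other direction. The median over the 10 genes was -0.10, beside 0.01 over all genes, with 4 genes above and 6 below 0.

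Opn1sw stood at 8.47, 8.63, and 8.51 log2 CPM in the treated OIR mice 2, 5, and 10, below the lowest control mouse at 8.81. These 3 values lay closer together than those of the OIR mice, and they fell inside the OIR range. Gngt2 stood at 6.39, 6.32, and 6.48 log2 CPM in the control mice 1, 6, and 7, at 6.44, 6.16, and 6.02 in the OIR mice, and at 5.91, 6.29, and 5.70 in the treated OIR mice. The highest treated OIR mouse lay 0.03 below the lowest control mouse on this scale. Gngt2 shares its locus with Abi3, a gene of microglia and other immune cells on the other strand, and the 9 microglia and monocyte markers summed to 79.8 to 324 CPM in the controls, 167 to 332 CPM in OIR, and 92.1 to 113 CPM in the treated OIR mice, with 2 of the 9 (Ly6c2 and Spn) below the filter on low counts. Their part in the Gngt2 values was not tested.

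The remaining genes overlapped between treated OIR and control mice. Gnb3 had a log2 fold change of 0.53 ± 0.41 (95% interval -0.40 to 1.45), which became -0.19 ± 0.21 without treated OIR mouse 2. Pde6c stood at 6.61, 6.96, and 6.84 log2 CPM in the treated OIR mice, with a fold change of 0.26 ± 0.15. The other 6 estimates ran from -0.28 for Opn1mw to 0.04 for Pde6h.

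In the third comparison, treated OIR with OIR, which asks how the HIF inhibitor bore on these transcripts, no cone gene was called and none had an unadjusted p below 0.05. Over all genes, 0% were called and 4.69% had an unadjusted p below 0.05. No cone gene was apart between these groups, where 3.74% of all genes were apart as higher and 5.39% as lower. The estimates ran from -0.27 ± 0.41 for Gnb3 to 0.08 ± 0.25 for Opn1mw, with a median of -0.10 beside 0.01 over all genes, and 8 of the 10 lay below 0. The intervals show what these 3 mice per group leave possible. That of Pde6c, the narrowest, ran from -0.38 to 0.29, that of Opn1sw from -0.51 to 0.33, and those of Gnb3 and Arr3 from -1.19 to 0.65 and from -1.16 to 0.73 on the log2 scale.

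Each cone gene other than the opsins was then set beside the rod gene of the same role in the same library, as a log2 ratio of counts. This asks whether cone transcripts stood differently relative to rod transcripts, and it does not depend on scaling between libraries. Of 8 pairs, 2 were apart between OIR and control, both higher in OIR. For comparison, over the ratio of each of the 17540 tested genes to the rod genes of the 8 pairs, 9.1% were apart as higher and 13.7% as lower. The same 2 pairs were apart between treated OIR and control, where these shares were 7.76% and 6.71%; both comparisons use the same control mice.

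The 2 pairs were those of PDE6. The count of Pde6c was 6.02%, 6.18%, and 5.06% of that of Pde6b, the rod catalytic beta subunit, in the control mice 1, 6, and 7. It was 8.18%, 6.67%, and 7.97% in the OIR mice 3, 5, and 6, and 9.22%, 6.58%, and 7.01% in the treated OIR mice 2, 5, and 10. The log2 ratio was higher by 0.40 in OIR and by 0.39 in treated OIR than in control retina (exact permutation p = 0.1 for each, the smallest the design allows; adjusted p = 0.4 over 8 pairs). The count of Pde6h was 6.79%, 7.24%, and 6.00% of that of Pde6g, the rod inhibitory subunit, in control, 8.97%, 7.69%, and 8.05% in OIR, and 9.63%, 7.68%, and 7.42% in the treated OIR mice. Its log2 ratio was higher by 0.30 in both OIR and treated OIR retina (exact permutation p = 0.1, adjusted p = 0.4).

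The rod members of these pairs had estimates below 0 in both comparisons. In OIR against control, Pde6b was at -0.10 ± 0.23 and Pde6g at -0.32 ± 0.22 (SE), and in treated OIR against control they were at -0.10 ± 0.23 and -0.27 ± 0.22. With the cone members' estimates at or above 0, the ratio difference is made up by both terms for Pde6c and almost wholly by the rod term for Pde6h. Between treated OIR and OIR, the ratios differed by -0.01 for each pair. Rod PDE6 also has a catalytic alpha subunit, Pde6a, and the ratio of Pde6c to it was not tested. Unlike Pde6b, Pde6a had an estimate above 0 in OIR against control, at 0.08 ± 0.17 (SE). Its log2 CPM averaged 10.50 ± 0.28 (SD) for the control mice, against 10.59 ± 0.17 with vehicle and 10.54 ± 0.08 with 32-134D. By these means, Pde6c stood less far above control relative to Pde6a than relative to Pde6b.

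The other 6 pairs overlapped in both of those comparisons. Gnat2 was 1.34% to 1.64% of Gnat1 in the controls, 1.46% to 1.67% in OIR, and 1.45% to 1.54% in the treated OIR mice, with a mean log2 difference of 0.04 in OIR. Gnb3 relative to Gnb1, the rod beta subunit, was the most variable, from 8.09% to 16.4% in the controls, 12.5% to 31.3% in OIR, and 7.97% to 35.6% in the treated OIR mice, with the highest value in treated OIR mouse 2. Between treated OIR and OIR no pair was apart, where 4.14% of ratios were apart as higher and 1.77% as lower, and 7 of the 8 differences lay below 0.

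**Figure D3:**
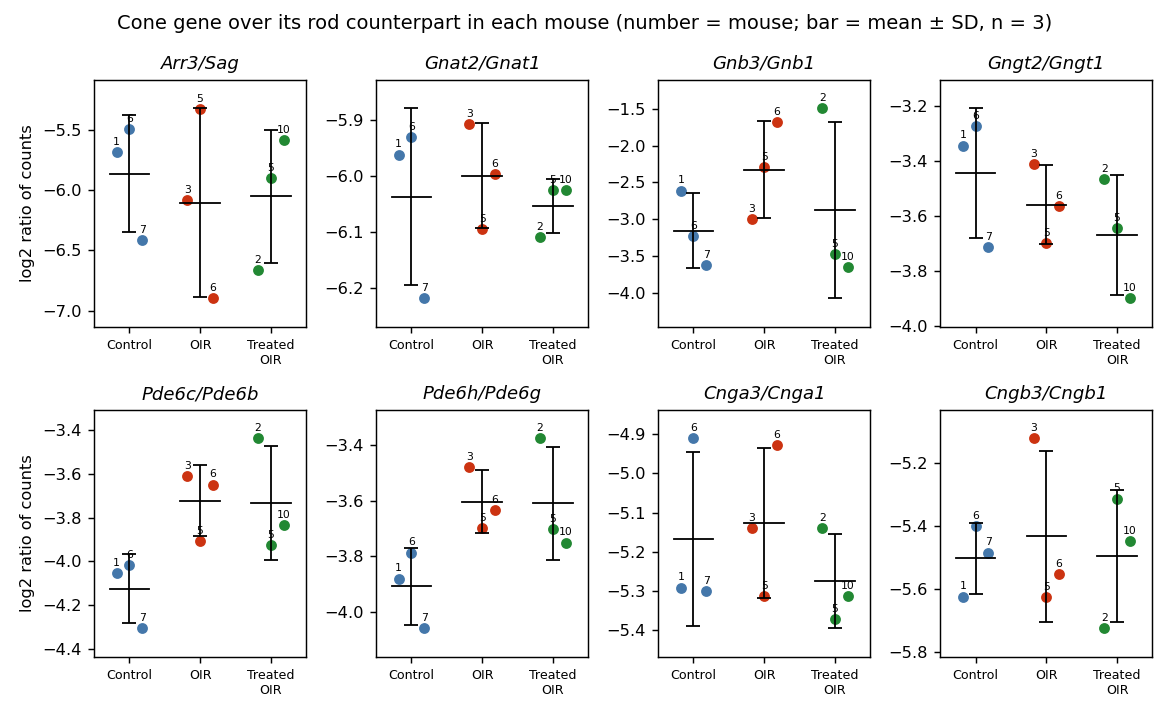
Log2 ratio of the count of each of 8 cone genes to that of the rod gene of the same role in each mouse, on a separate vertical axis per pair; points are mice with their numbers, and bars show the mean ± SD of 3 mice. Pde6c/Pde6b and Pde6h/Pde6g lie higher in the 3 OIR and 3 treated OIR mice than in the 3 control mice.

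Among the mice, the correlations of the cone genes with each other were mostly above 0, and those with Gnb3 were below 0. Over the 9 mice, the 36 pairs that leave out Gnb3 had Pearson r of -0.00 to 0.92 with a median of 0.52, and 35 of the 36 were above 0, where 50% of all pairs of tested genes were. All 9 pairs with Gnb3 were below 0, from -0.69 to -0.13 with a median of -0.42. After each group's mean was taken off, the pairs without Gnb3 ran from 0.03 to 0.97 and the pairs with it from -0.73 to -0.14. All points in these correlations come from the same 9 libraries and share their depth, scaling, and tissue composition, so they describe these mice only.

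The highest r of the 45 pairs was that of Opn1mw and Gnat2, at 0.92 (Spearman rho 0.97, n = 9 mice; r = 0.96 without the 2 mice farthest from the median). The channel subunits Cnga3 and Cngb3 came next at 0.90, and Gnat2 and Cngb3 followed at 0.84. Gnat2 and Gnb3, subunits of 1 heterotrimer in cones, had the lowest, at -0.69 (rho -0.62). Without the 2 mice farthest from the median of Gnat2, OIR mouse 3 and control mouse 7, r was -0.85. That value keeps OIR mouse 6 and treated OIR mouse 2, so it cannot show how far r rests on them. Gnat2 was low in OIR mouse 6 (6.95 log2 CPM) and treated OIR mouse 2 (6.97), where Gnb3 was at its highest. Each pair was also read without the 2 mice farthest from the median of its first gene. Then 5 of the 9 pairs with Gnb3 were above 0 (Arr3 at 0.56, Gngt2 at 0.35, Pde6c at 0.15, Pde6h at 0.13, and Cngb3 at 0.08). For these and for Cnga3 (-0.04), Gnb3 was the first gene, so OIR mouse 6 and treated OIR mouse 2 were left out. The direction of the 5 over 9 mice rested on those mice. For Opn1sw (-0.55), Opn1mw (-0.43), and Gnat2, Gnb3 was the second gene and treated OIR mouse 2 was kept. Those 3 values cannot show how far r rests on that mouse. With mice left out in the same way, 33 of the 36 pairs without Gnb3 were above 0 and 3 below it (Opn1sw with Pde6c at -0.45, Pde6c with Pde6h at -0.26, and Opn1sw with Arr3 at -0.04).

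**Figure D4:**
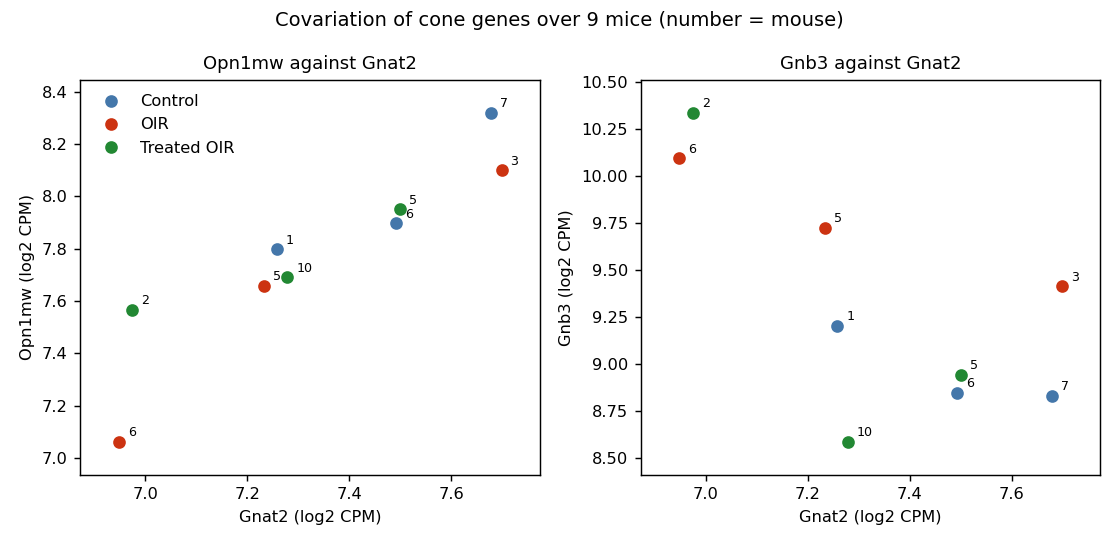
Opn1mw (left) and Gnb3 (right) against Gnat2, in log2 CPM, for the 9 mice, with mouse numbers beside the points and colors for the groups. Opn1mw rises with Gnat2 (r = 0.92), whereas Gnb3 is highest in the 2 mice with the lowest Gnat2 (r = -0.69).

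The mean log2 CPM of the 10 cone genes was 6.77, 6.90, and 6.95 in the controls, 7.15, 6.88, and 6.64 in OIR, and 6.68, 6.95, and 6.70 in the treated OIR mice. Outside the list, the genes whose log2 CPM followed this mean most closely over the 9 mice were CT025652.2, a noncoding RNA (r = 0.97), Fzd10, a Wnt receptor (0.96), Gm35217 (0.92), Gm6104 (0.91), and B4galt3, a galactosyltransferase (0.90). They are the top 5 of the tested genes outside the list, and their likeness is a description.

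Other genes of phototransduction and photoreceptors were read in the same fits. Of 10 rod phototransduction genes, none was called in any comparison, and their fold changes in OIR ran from -0.32 (Pde6g) to 0.16 (Sag, rod arrestin), with a median of -0.04. Of 12 further genes of the cascade, most of them used by both photoreceptor types, none was called in OIR either. The guanylate cyclase activators stood out by size. Guca1a, which restores cyclic GMP after light, stood at 8.74, 9.10, and 9.37 log2 CPM in the controls, 7.98, 8.16, and 7.61 in OIR, and 7.30, 8.36, and 7.77 in the treated OIR mice, so that both OIR groups lay wholly below control. Its log2 fold change was -1.16 ± 0.27 in OIR (edgeR adjusted p = 0.068; DESeq2 on the 2 groups, 1.1e-08) and -1.22 ± 0.27 in the treated OIR retina (edgeR adjusted p = 0.11; DESeq2 on the 2 groups, 0.0076). Guca1b, its relative, had -0.68 ± 0.22 in OIR (edgeR adjusted p = 0.12). Slc24a2, the exchanger of cones in this list, was at -0.63 ± 0.29 in OIR (edgeR adjusted p = 0.23, DESeq2 on the 2 groups 0.0075). Its OIR mice all lay below the control mice, as in 17.2% of all genes.

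Of 8 further cone genes, 7 passed the filter (Clca3a2 did not) and none was called. Thrb, the thyroid hormone receptor that directs the medium-wavelength opsin, was at 0.44 ± 0.13 in OIR (edgeR adjusted p = 0.098), and Rxrg, its cone partner receptor, at -0.84 ± 0.30 (edgeR adjusted p = 0.14). Among 12 photoreceptor transcription factors, Otx2, which specifies photoreceptors and also acts in bipolar cells, rose in OIR by 0.49 ± 0.09 (edgeR adjusted p = 0.048). Its CPM was 217, 214, and 232 in the controls, 310, 317, and 306 in OIR, and 280, 275, and 255 in the treated OIR mice. Prdm1, which favors photoreceptor over bipolar fate, was at 0.81 ± 0.18 (edgeR adjusted p = 0.062) and Neurod1 at 0.56 ± 0.14 (edgeR adjusted p = 0.071). The list's median was 0.22, beside 0.03 over all genes.

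None of 12 outer segment genes was called in OIR. Impg2, of the matrix between photoreceptors, was at 0.90 ± 0.26 (edgeR adjusted p = 0.094) and Rp1, of the outer segment axoneme, at 0.54 ± 0.14 (edgeR adjusted p = 0.074), and the list's median was 0.22. Of 10 visual cycle genes, Rdh10, a retinol dehydrogenase, rose by 0.94 ± 0.17 (edgeR adjusted p = 0.048), while Rgr, of pigment epithelium and Müller glia, was at -1.04 ± 0.37 (edgeR adjusted p = 0.14). The list's median was -0.17.

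The calls on Otx2 and Rdh10 were lost in 8 of the 9 fits that left out 1 mouse. Of the 64 pathway genes besides the cone members, 63 passed the filter. Otx2 and Rdh10 were the 2 called in OIR, where 0.941% of all genes were called. Both calls were lost when any control mouse, any OIR mouse, or treated OIR mouse 5 or 10 was left out, with adjusted p by edgeR from 0.053 to 0.17 for Otx2 and from 0.052 to 0.18 for Rdh10. Without treated OIR mouse 2 both were called (0.0096 and 0.012 by edgeR) along with 10 other pathway genes, where 12.5% of all genes were called. The log2 fold changes in these fits ran from 0.47 to 0.53 for Otx2 and from 0.74 to 1.07 for Rdh10, and both calls were also lost with sex as a covariate (0.087 and 0.082 by edgeR). With the OIR and control mice alone, DESeq2 called 14 of the 63, beside 15.4% of all genes, and edgeR 8, beside 10.3%. Guca1a, Prdm1, Neurod1, Impg2, Rp1, and Rgr were called by both. In treated OIR against control edgeR called 0 of the 63, beside 0.0228% of all genes. Of the 63, 17 were below an unadjusted p of 0.05, beside 18.6% of all genes. DESeq2 on those 2 groups called 3 (Guca1a, Prdm1, and Rp1). In treated OIR against OIR both tools called 0 of the 63, with 3 below an unadjusted p of 0.05 by edgeR, beside 4.69% of all genes.

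Markers of other cells of the eye were summed beside the cone genes. The 6 rod markers summed to 19003 to 28054 CPM in the controls, 17769 to 24902 CPM in OIR, and 16898 to 24694 CPM in the treated OIR mice. Müller glia markers (6) summed to 5612 to 6070, 6848 to 8653, and 3202 to 5490 CPM, pigment epithelium markers (8) to 298 to 325, 188 to 355, and 262 to 474 CPM, and the 15 lens markers to 24.7 to 391, 100.5 to 1468, and 16.2 to 164686 CPM, in the same order of groups. Of the lens markers, Lim2 was at 0 in treated OIR mouse 10. The 6 retinal ganglion cell markers had a median fold change of -2.15 in OIR, while the 10 cone genes had 0.03. The part of these markers in the values of the cone genes was not tested.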

How the data were processed

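RNA from the retinas of 9 mice, 3 per group, was sequenced, and the authors deposited raw counts per gene with a gene length; the submitters' processing notes name CASAVA and HISAT without versions, and the counting tool is not given in the sources used here. Coordinates in the table are those of GRCm38. Counts were fitted with edgeR 4.0.16 in R 4.3.3 (TMM, filter by group, quasi-likelihood test, all mice, 1 mean per group, Benjamini-Hochberg over 17540 genes), and called means adjusted p below 0.05. Log2 CPM used a prior count of 2. Ratios of counts were tested by exact two-sided permutation. Alternatives were DESeq2 1.42.0, edgeR on pairs of groups, limma 3.58.1 (voom with quality weights), other scalings and filters, sex as a covariate, and leaving out each mouse. The edgeR and limma fits were tested on simulated counts. DESeq2 on all 9 mice was run on them too but was held to no limit on false calls. DESeq2 on 2 groups was not run on them. Counting error is small at these totals, and 3 mice per group limit the precision. The members, their rod counterparts, the other lists, and the cell type markers were chosen with earlier results of these data known. Named were the members, their rod counterparts, called list genes, the 2 list genes with the smallest p in OIR against control, and the 5 genes most like the members' mean. Gng13, Pcp2, Pde6a, and Slc24a2 were named in addition. Figures used Python 3.11.15 and matplotlib 3.10.9. Results on some genes are not reported here, and 8 cone to rod pairs were tested.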

Additional observations from a re-analysis of the deposited data

How the results depend on the processing

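In the fit of all 9 mice, 0 of the 10 cone genes were called in OIR against control, and 1 (Gnb3) was called with DESeq2 on the 2 groups, 1 with edgeR on the 2 groups, and 0 to 1 when a mouse was left out, the 1 being without treated OIR mouse 2. No other call on a cone gene was gained or lost under any alternative run. Estimates that changed sign are given next, with the cause not tested, and none of them was called. In OIR against control, Pde6h went to -0.0063 with edgeR on the 2 groups, to -0.0069 with TMM after leaving out crystallin genes, and to -0.019 with sex as a covariate, and Arr3 to -0.085 with limma-voom. When a mouse was left out, Pde6h ran from -0.21 to 0.15, Cngb3 from -0.066 to 0.27, and Arr3 from -0.39 to 0.36. In treated OIR against control, Pde6h went to -0.056 with sex as a covariate and Cngb3 to 0.13 with limma-voom. When a mouse was left out, Gnb3 ran from -0.19 to 0.83, Pde6h from -0.031 to 0.17, Cnga3 from -0.10 to 0.12, Cngb3 from -0.20 to 0.13, and Arr3 from -0.37 to 0.15. In treated OIR against OIR, Opn1mw went to -0.0010 and Pde6h to -0.061 with total counts alone, Pde6h to -0.038 with sex as a covariate, and Gnat2 to 0.078, Pde6c to 0.044, Cnga3 to 0.0024, and Arr3 to 0.084 with limma-voom. When a mouse was left out there, Opn1sw ran from -0.23 to 0.16, Opn1mw from -0.15 to 0.36, Gnat2 from -0.22 to 0.17, Gnb3 from -0.97 to 0.029, Pde6c from -0.15 to 0.12, Pde6h from -0.11 to 0.26, Cngb3 from -0.36 to 0.046, and Arr3 from -0.53 to 0.22. The difference in the log2 ratio of the opsins ran from -0.20 to 0.18 for OIR with control and from -0.017 to 0.36 for treated OIR with OIR. Cone to rod pairs apart numbered 2 to 4 in treated OIR with control, where 4 were apart without control mouse 7, and 0 to 3 in treated OIR with OIR, where 2 were apart without OIR mouse 5 and 3 without treated OIR mouse 2; groups of 2 mice are apart more often by their size. No paired analysis was possible because a mouse number shared by groups does not link their mice. Alternatives for the other pathway genes were chosen after seeing the data. On the OIR and control mice alone, DESeq2 called 15.4% of all genes and edgeR 10.3%. In OIR against control, where 2 of them were called, the count was 10 with DESeq2 on all 9 mice, 14 with DESeq2 and 8 with edgeR on the 2 groups, 11 with limma-voom, 4 with no filter, 1 with TMM after leaving out crystallin genes, 0 with DESeq2 size factors, total counts alone, or sex as a covariate, and 0 to 12 when a mouse was left out. In treated OIR against control it was 0, and 5 with DESeq2 on all 9 mice, 3 with DESeq2 on the 2 groups, and 12 with limma-voom. With 3 mice a group, the 95% interval of Pde6c in treated OIR against OIR ran from -0.38 to 0.29 on the log2 scale, and it was the narrowest of the 10.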
